A study of Homo sapiens with 9 samples.

Results

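The 10 genes described here are transcription factors and markers of the mesenchymal transition: ZEB1, ZEB2, SNAI1, SNAI2, TWIST1, TWIST2, VIM, FN1, CDH2 and CDH6. They were taken by symbol from a count table of 28395 genes, and all 10 were found there. RNA was sequenced from 3 human renal cell lines, with 3 libraries per line. HK2 is an immortalised line of normal proximal tubule cells, 786-O is a line from a primary clear cell renal cell carcinoma (ccRCC), and 786-M1A was recovered from a lung metastasis after 786-O cells had been injected in vivo. All 3 lines were adapted to Plasmax, a medium made after the nutrients of human serum, and the labels name no treatment. Both cancer lines lack functional VHL. Each state was represented by 1 line, so a difference between normal, primary and metastatic cells cannot be told apart from a difference between these lines.

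In an epithelial-mesenchymal transition, cells lose the junctions that hold an epithelial sheet together and gain the cytoskeleton, matrix and cadherins of mobile cells. Factors of the ZEB, SNAI and TWIST families carry this change: ZEB and SNAI proteins are zinc finger repressors that bind E-boxes in epithelial genes such as CDH1, and TWIST proteins are basic helix-loop-helix factors. Vimentin, fibronectin and N-cadherin are its classical products. Kidney tubule is an unusual epithelium in this respect, since proximal tubule cells normally carry N-cadherin (CDH2) and cadherin-6 (CDH6), and ccRCC is known for its vimentin.

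The members did not move as a block. Against HK2, VIM, ZEB1, ZEB2 and CDH2 were higher in both cancer lines, whereas FN1, CDH6, SNAI2 and TWIST1 were lower in both. SNAI1 was lower in 786-M1A cells and was not called in 786-O cells. TWIST1, at 8.33 ± 0.186 CPM (counts scaled to the size of each library, SD, n = 3) in HK2 cells, had no read in any library of either cancer line. Between the cancer lines, FN1, VIM and CDH2 were higher in 786-M1A than in 786-O, and CDH6, SNAI1, SNAI2 and ZEB2 were lower.

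The totals per library lay between 30212291 and 45362428 counts, so that 3 counts, the level up to which a count of 0 is uninformative, corresponded to between 0.0647 and 0.0964 CPM. A gene entered the test if its counts averaged 50 or more (12695 genes), and it was called where the p-value of edgeR's quasi-likelihood test, adjusted over all of them, was below 0.05. Of 16 proximal tubule markers, 7 reached 1 CPM in each line, but not the same 7. MIOX reached it in HK2 alone, AQP1 in 786-O alone and CUBN in 786-M1A alone. LRP2, SLC22A6 and SLC22A8 were at 0 in every library. The tubular factor PAX8 was present in all 3 lines, whereas the tubular factor HNF4A stayed under 1 CPM in each. Of 12 markers of endothelial, blood and stromal cells, PTPRC was at 0 in all 9 libraries, and the summed level of the 12 ranged over 122 to 135 CPM in HK2 libraries, 307 to 375 in 786-O (most of it COL1A1) and 55.7 to 61.5 in those of 786-M1A. Of 6 ccRCC markers, CA9 stayed under 1 CPM in every line, and 5 were tested. Against HK2, 3 were higher and 2 not called in 786-O, and 4 were higher and 1 not called in 786-M1A. Of all genes, 41.6% were higher in each comparison. CD70, EGLN3 and VIM, itself a member, were higher in both cancer lines. These are bulk libraries, in which fewer cells carrying a transcript and less of it per cell cannot be told apart.

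Of the 10 genes, 9 passed the filter. TWIST2 did not, with 1 count in each HK2 library and 0 in the other 6. TWIST1 passed it only through its level in HK2 cells, so that its difference from the cancer lines was fixed by the filter, and it is left out of the following counts. In 786-O against HK2, 7 of the other 8 members were called, 4 higher and 3 lower, beside 84.2% of all genes tested (41.6% higher and 42.6% lower). In 786-M1A against HK2, 8 of these 8 were called, 4 higher and 4 lower, beside 84.9% of all genes (41.6% higher and 43.3% lower). In 786-M1A against 786-O, 7 of the 8 were called, 3 higher and 4 lower, beside 56.0% of all genes (27.9% higher and 28.0% lower). So many genes differed from HK2 that the share of called members in these 2 comparisons is close to the background. Between the cancer lines the share of members was above that of all genes, but whether 8 genes can show this was not tested. With a fold of at least 2 in addition, 2 members were higher and 2 lower in 786-O than in HK2, beside 9.18% and 13.1% of all genes (22.3% in either direction). In 786-M1A against HK2 these were 2 members and 1 member, beside 10.4% and 15.0% (25.4%), and in 786-M1A against 786-O 1 was higher and 0 were lower, beside 2.03% and 4.55% (6.59%). The median log2 fold change of the 8 was 0.28, 0.15 and -0.04, and that of all genes was -0.01, -0.02 and 0.00. The libraries of the 2 lines compared did not overlap for 7, 8 and 7 of the 8 members, beside 85.4%, 85.0% and 61.6% of all genes. An exact two-sided permutation test of 3 libraries against 3 cannot give a p below 0.1, and this was its value for each member and comparison without overlap.

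Per kilobase of transcript, the scale on which genes can be compared with each other, VIM and FN1 stood far above the factors in each line, and CDH2 and CDH6 above them by less. In HK2 cells the order was FN1 (779 ± 78.4 CPM per kb, SD, n = 3), VIM (648 ± 20.6), CDH6 (104 ± 4.27), CDH2 (57.7 ± 1.33), SNAI2 (24.8 ± 0.796), SNAI1 (14.7 ± 0.849), TWIST1 (5.11 ± 0.114), ZEB1 (3.62 ± 0.102) and ZEB2 (2.35 ± 0.129), with TWIST2 last, and the libraries of no pair of neighbours overlapped. In 786-O cells VIM led at 2249 ± 23.4 CPM per kb, followed by FN1 at 196 ± 12.5, and CDH2 (82.7 ± 1.79) stood above CDH6 (47.9 ± 1.53). ZEB2 and ZEB1 closed the order in 786-O at 5.71 ± 0.225 and 5.44 ± 0.237 CPM per kb, and their libraries overlapped. In 786-M1A cells VIM reached 3035 ± 41.9 CPM per kb, FN1 475 ± 59.6, CDH2 94.7 ± 4.05 and CDH6 31.2 ± 1.18. ZEB1 (5.89 ± 0.437) stood above ZEB2 (5.01 ± 0.101) in 786-M1A, without overlap. In each line SNAI2 stood above SNAI1 and both stood above ZEB1 and ZEB2. The lengths were those of 1 annotated transcript per gene, and a line that used another isoform would have another value. Bases shared with antisense genes, as in VIM, ZEB1 and ZEB2, were not taken out of the lengths.

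**Figure D1:**
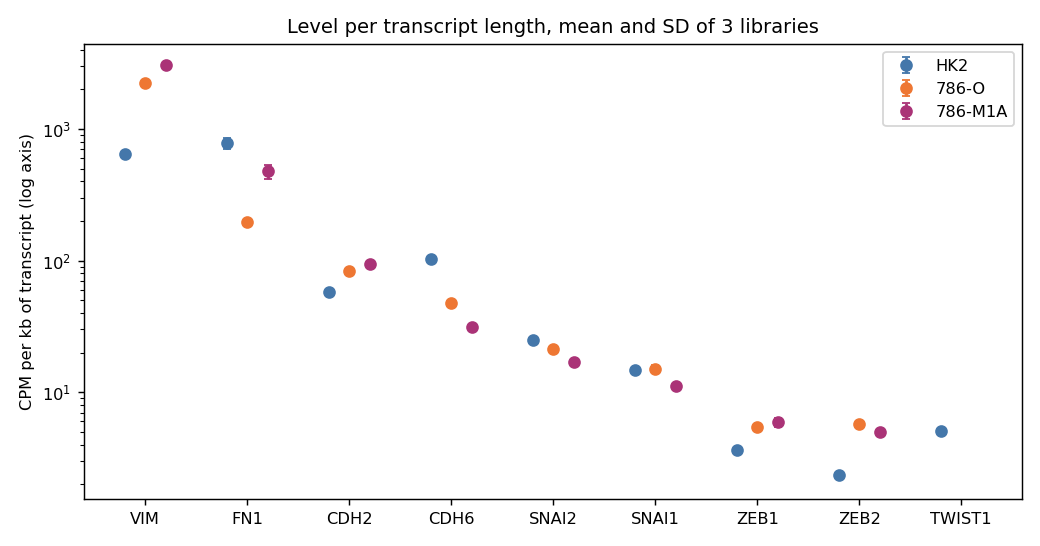
Level of the members per kilobase of transcript (CPM per kb, log axis) in HK2, 786-O and 786-M1A cells. Points are means and bars are SD of 3 libraries. TWIST1 has a point for HK2 alone, since it had 0 counts elsewhere, and TWIST2 is not drawn. FN1 leads in HK2 (779 CPM per kb) and VIM in 786-O (2249) and 786-M1A (3035).

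Among the members that differed by at least 2-fold in a comparison, VIM, ZEB2 and FN1 had a promoter sequence in the RefSeq table used here (GRCh38.p14), which held 6 of the 10 genes, without CDH6, SNAI1, SNAI2 and TWIST1. The 250 bases before their RefSeq starts are shown because VIM and ZEB2 rose together in both cancer lines while FN1 fell. The ZEB2 window lies inside the span of the gene in GENCODE (chr2:144364364-144521057), so it is not upstream of every annotated start. Capitals mark the E-box CANNTG and the GC box GGGCGG on either strand, and neighbouring GC boxes can overlap.
VIM, chr10:17227991-17228240, plus strand: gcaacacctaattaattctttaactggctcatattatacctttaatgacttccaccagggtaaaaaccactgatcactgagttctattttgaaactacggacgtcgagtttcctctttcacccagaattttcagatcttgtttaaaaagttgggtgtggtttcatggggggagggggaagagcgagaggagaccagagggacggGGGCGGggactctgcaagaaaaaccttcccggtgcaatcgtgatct
ZEB2, chr2:144520120-144520369, minus strand: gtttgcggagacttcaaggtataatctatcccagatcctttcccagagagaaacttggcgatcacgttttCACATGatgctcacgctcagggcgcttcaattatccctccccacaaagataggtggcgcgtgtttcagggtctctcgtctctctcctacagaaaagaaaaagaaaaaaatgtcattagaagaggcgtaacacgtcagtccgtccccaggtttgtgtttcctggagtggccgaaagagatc
FN1, chr2:215436069-215436318, minus strand: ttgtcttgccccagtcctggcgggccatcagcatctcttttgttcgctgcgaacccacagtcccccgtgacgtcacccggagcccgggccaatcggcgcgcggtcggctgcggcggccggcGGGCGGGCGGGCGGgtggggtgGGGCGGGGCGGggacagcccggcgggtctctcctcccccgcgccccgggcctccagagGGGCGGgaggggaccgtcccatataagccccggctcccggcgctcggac
The VIM window held no E-box and 1 GC box, at -46 from the start. The ZEB2 window held 1 E-box, at -180, and no GC box, and the FN1 window held 6 GC boxes and no E-box. Of 35116 promoter windows of the same length, 61.8% held CANNTG, 17.5% held CACCTG, the form of it preferred by ZEB and SNAI proteins, and 42.6% held GGGCGG, each searched on both strands. None of the 3 windows held CACCTG. The cores of the hypoxia response element, ACGTG and GCGTG, occurred 2 times each in the ZEB2 window and not in the others, beside 18.5% and 32.2% of all windows with at least 1. The windows also differed in base composition, with 46.0% G and C for VIM, 48.0% for ZEB2 and 76.4% for FN1 against a median of 58.0% over all windows. TATAAA and TGANTCA, the latter the AP-1 motif, were in none of the 3 and in 10.7% and 6.57% of all windows. ACGTG can overlap CANNTG, and matches describe letters and not binding.

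ZEB1 and ZEB2, a pair of related zinc finger and homeodomain repressors, were both higher in the cancer lines than in HK2, ZEB2 more than ZEB1. ZEB1 (gene ID 6935, chr10:31318495-31529814, plus strand, GRCh38) stood at 21.3, 21.0 and 22.2 CPM in HK2, at 30.8, 33.5 and 32.6 CPM in 786-O and at 32.0, 36.6 and 36.3 CPM in 786-M1A libraries. The HK2 libraries lay below all others, and the 786-O and 786-M1A libraries overlapped. ZEB1 was 1.50-fold higher in 786-O than in HK2 (log2 fold change 0.58, SE 0.0573, edgeR adjusted p = 4.42e-09) and 1.62-fold higher in 786-M1A than in HK2 (0.70, SE 0.0574, adjusted p = 1.92e-10). Between the cancer lines the log2 fold change of ZEB1 was 0.12 (SE 0.0548, edgeR adjusted p = 0.0749) and was not called. Library 1 of 786-M1A was the lowest of its line, and without it the value was 0.18 (adjusted p = 0.00594).

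ZEB2 (gene ID 9839, chr2:144364364-144521057, minus strand) stood at 21.9, 20.6 and 23.0 CPM in HK2, at 50.6, 54.6 and 53.4 CPM in 786-O and at 45.4, 47.2 and 46.6 CPM in 786-M1A libraries. No line overlapped another, and 786-O was the highest of the 3. ZEB2 was 2.42-fold higher in 786-O (log2 fold change 1.28, SE 0.0503, edgeR adjusted p = 5.25e-16) and 2.12-fold higher in 786-M1A (1.09, SE 0.0510, adjusted p = 1.02e-14) than in HK2, and 1.14-fold lower in 786-M1A than in 786-O (-0.19, SE 0.0470, adjusted p = 1.81e-03). Counts of ZEB2 and ZEB1 within a library, which need no scaling between libraries, stood in a ratio of 1.01 ± 0.0301, 1.64 ± 0.00749 and 1.33 ± 0.0763 in HK2, 786-O and 786-M1A (SD, n = 3, not corrected for length). The 3 lines did not overlap in this ratio (exact permutation p = 0.1 in each comparison). The summed level of both genes was 43.3 ± 1.77, 85.2 ± 3.49 and 81.4 ± 3.51 CPM in HK2, 786-O and 786-M1A.

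Antisense transcripts share exonic bases with both genes, and the use of strand in the counting was not given in the sources used here. ZEB1-AS1, which shares 396 exonic bases with ZEB1, had 43 to 173 counts per library, between 4.67% and 12.5% of the ZEB1 count. It was itself higher in 786-O (log2 fold change 1.72, adjusted p = 1.76e-10) and in 786-M1A (1.83, adjusted p = 5.41e-11) than in HK2. ZEB2-AS1, with 1299 shared bases, had 0 to 2 counts per library, at most 0.120% of the ZEB2 count. How reads over the shared bases were assigned is not known, so a low antisense count does not show that ZEB2 was unaffected. The part of antisense reads in the ZEB1 difference, and of the overlap in the ZEB2 values, was not tested.

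SNAI1 and SNAI2 encode Snail and Slug, zinc finger repressors that act early in the transition. Both were lowest in 786-M1A. SNAI1 (gene ID 6615, chr20:49982980-49988886, plus strand) stood at 26.6, 23.7 and 24.9 CPM in HK2, at 27.4, 23.7 and 25.7 CPM in 786-O and at 19.9, 18.8 and 18.0 CPM in 786-M1A libraries. HK2 and 786-O libraries overlapped, and each of the 3 from 786-M1A lay below them. SNAI1 was 1.33-fold lower in 786-M1A than in HK2 (log2 fold change -0.41, SE 0.0625, edgeR adjusted p = 3.40e-06) and 1.36-fold lower than in 786-O (-0.44, SE 0.0620, adjusted p = 3.11e-06). In 786-O against HK2 the log2 fold change was 0.03 (SE 0.0599, adjusted p = 0.596, exact permutation p = 0.7), and its sign turned under upper-quartile scaling (-0.0068).

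SNAI2 (gene ID 6591, chr8:48917598-48921740, minus strand) stood at 52.3, 54.0 and 55.8 CPM in HK2, at 46.7, 45.3 and 47.0 CPM in 786-O and at 37.6, 36.2 and 37.5 CPM in 786-M1A libraries. It went down from HK2 over 786-O to 786-M1A, with no overlap between lines. The difference was 1.17-fold for 786-O against HK2 (log2 fold change -0.22, SE 0.0428, edgeR adjusted p = 5.88e-05), 1.46-fold for 786-M1A against HK2 (-0.55, SE 0.0438, adjusted p = 1.33e-10) and 1.25-fold for 786-M1A against 786-O (-0.32, SE 0.0440, adjusted p = 2.15e-06). The ratio of SNAI2 to SNAI1 counts was 2.16 ± 0.168, 1.81 ± 0.103 and 1.97 ± 0.101 in HK2, 786-O and 786-M1A (SD, n = 3). 786-M1A libraries overlapped both other lines in this ratio (exact permutation p = 0.2 each), and 786-O lay below HK2 (p = 0.1). The summed level of both fell with SNAI2, at 79.1 ± 1.54, 72.0 ± 2.61 and 56.0 ± 1.30 CPM in HK2, 786-O and 786-M1A.

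TWIST1 (gene ID 7291, chr7:19020991-19117636, minus strand), a helix-loop-helix factor of the mesoderm and neural crest, had 266, 332 and 381 counts in the HK2 libraries, or 8.55, 8.23 and 8.22 CPM. It had 0 counts in each library of 786-O and of 786-M1A. A count of 0 allows up to 0.0796 CPM in the first line and 0.0829 CPM in the second, taking 3 counts in the shallowest library of each line. Against this floor TWIST1 was at least 105-fold lower in 786-O and at least 101-fold lower in 786-M1A than in HK2, and no test is given, since the filter admitted the gene through HK2. Its relative TWIST2 (gene ID 117581, chr2:238848032-238910534, plus strand) had 1 count in each HK2 library, under the floor of 3 counts, so no difference in TWIST2 was detectable at this depth.

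**Figure D2:**
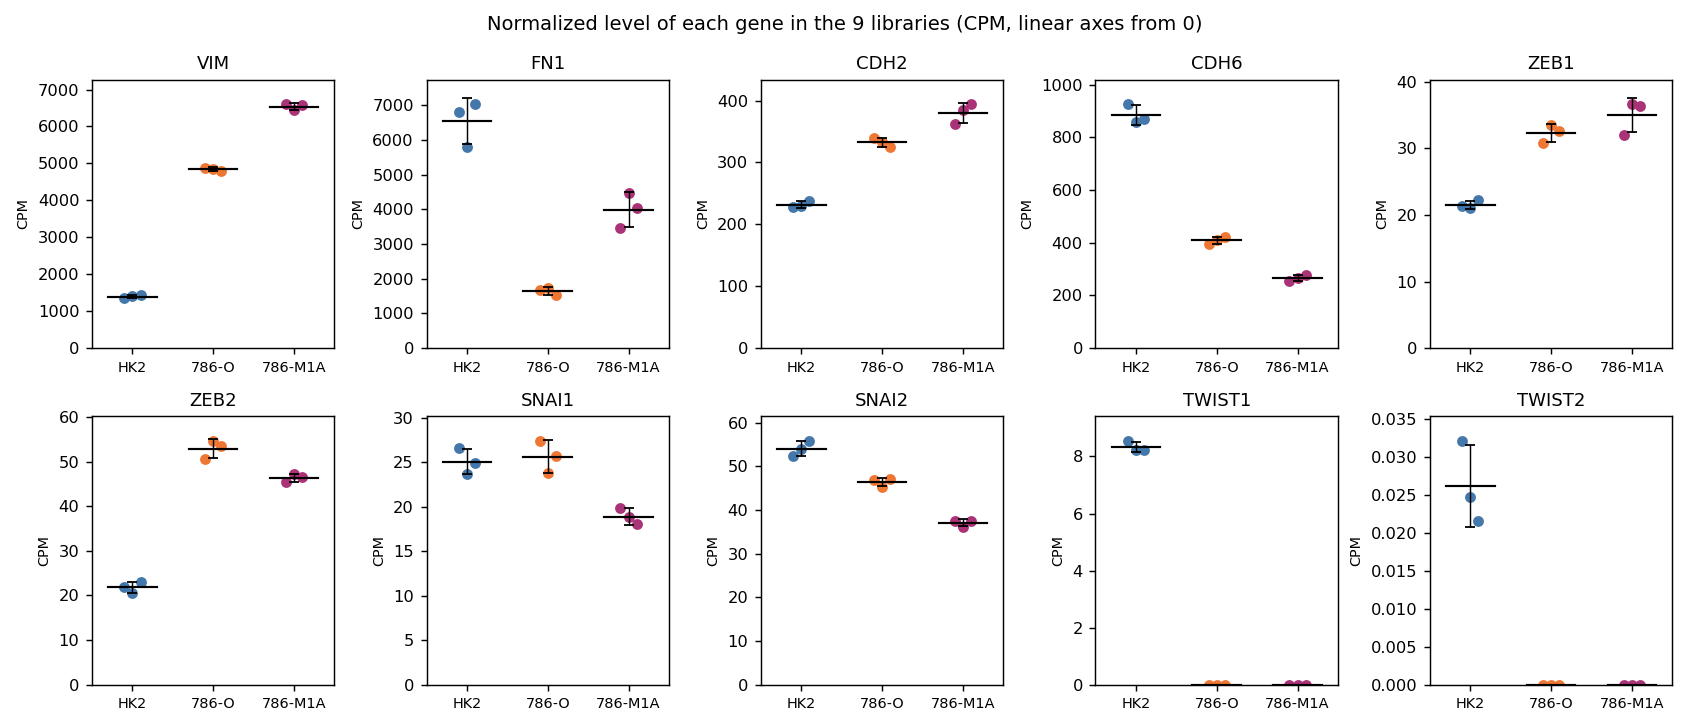
Level of each of the 10 genes (CPM, linear axes from 0, a separate axis per gene) in the 3 libraries of HK2, 786-O and 786-M1A. Points are libraries, the long bar is the mean and the error bar the SD. TWIST1 is at 8.22 to 8.55 CPM in HK2 and at 0 elsewhere. The TWIST2 points are 1 count each. In CPM, FN1 has the widest spread within each line.

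VIM (gene ID 7431, chr10:17228241-17237593, plus strand) encodes vimentin, the intermediate filament protein of mesenchymal cells. It stood at 1346, 1417 and 1427 CPM in HK2, at 4889, 4853 and 4789 CPM in 786-O and at 6605, 6435 and 6572 CPM in 786-M1A libraries. The lines lay apart in the order HK2, 786-O, 786-M1A, with gaps many times the spread within a line. VIM was 3.46-fold higher in 786-O (log2 fold change 1.79, SE 0.0313, edgeR adjusted p = 2.76e-22) and 4.68-fold higher in 786-M1A (2.23, SE 0.0317, adjusted p = 8.13e-24) than in HK2. It was 1.35-fold higher in 786-M1A than in 786-O (0.43, SE 0.0304, adjusted p = 8.64e-11). This single gene held 0.139% to 0.146% of all counts in HK2 libraries, 0.484% to 0.488% of those in 786-O and 0.622% to 0.641% of those in 786-M1A. VIM-AS1, which shares 656 exonic bases with VIM on the other strand, had 30 to 105 counts per library, at most 0.0717% of the VIM count. How reads over these shared bases were assigned is not known, and the effect on the VIM values was not tested.

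FN1 (gene ID 2335, chr2:215360440-215436073, minus strand) encodes fibronectin, a glycoprotein of the extracellular matrix. It stood at 6796, 5791 and 7028 CPM in HK2, at 1663, 1742 and 1535 CPM in 786-O and at 3464, 4460.0 and 4035 CPM in 786-M1A libraries. HK2 was the highest and 786-O the lowest, and the lines did not overlap. FN1 was 3.97-fold lower in 786-O than in HK2 (log2 fold change -1.99, SE 0.119, edgeR adjusted p = 2.23e-06) and 1.64-fold lower in 786-M1A than in HK2 (-0.72, SE 0.115, adjusted p = 7.65e-04). It was 2.42-fold higher in 786-M1A than in 786-O (1.28, SE 0.116, adjusted p = 7.30e-05), which made it the member with the largest difference between the cancer lines in either direction. FN1 also had the largest coefficient of variation of the tested members in HK2 (10.1%) and in 786-M1A (12.5%), while SNAI1 had it in 786-O (7.16%). That of VIM was 1.04% to 3.18%. The ratio of VIM to FN1 counts within a library was 0.215 ± 0.0256, 2.95 ± 0.168 and 1.66 ± 0.234 in HK2, 786-O and 786-M1A (SD, n = 3). No line overlapped another in this ratio (exact permutation p = 0.1), which was 13.7-fold higher in 786-O and 7.71-fold higher in 786-M1A than in HK2.

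CDH2 and CDH6 encode the classical cadherins of the proximal tubule, and they changed in opposite directions. CDH2 (gene ID 1000, chr18:27932879-28177946, minus strand), N-cadherin, stood at 228, 229.8 and 238 CPM in HK2, at 339, 333 and 325 CPM in 786-O and at 362, 385 and 394 CPM in 786-M1A libraries. HK2 was lowest and 786-M1A highest, without overlap. CDH2 was 1.43-fold higher in 786-O (log2 fold change 0.52, SE 0.0376, edgeR adjusted p = 2.74e-11) and 1.64-fold higher in 786-M1A (0.71, SE 0.0377, adjusted p = 8.66e-14) than in HK2. The step from 786-O to 786-M1A was 1.14-fold (0.20, SE 0.0373, adjusted p = 1.38e-04).

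CDH6 (gene ID 1004, chr5:31193686-31329146, plus strand), cadherin-6 or K-cadherin, stood at 926, 857 and 869 CPM in HK2, at 396, 409 and 422 CPM in 786-O and at 256, 267 and 276 CPM in 786-M1A libraries. It was highest in HK2 and lowest in 786-M1A, again without overlap. CDH6 was 2.16-fold lower in 786-O (log2 fold change -1.11, SE 0.0391, edgeR adjusted p = 6.62e-17) and 3.33-fold lower in 786-M1A (-1.73, SE 0.0399, adjusted p = 3.15e-20) than in HK2, and 1.54-fold lower in 786-M1A than in 786-O (-0.62, SE 0.0392, adjusted p = 1.44e-11). In counts, CDH2 and CDH6 stood in a ratio of 0.246, 0.268 and 0.274 in HK2, of 0.856, 0.813 and 0.769 in 786-O and of 1.42, 1.44 and 1.43 in 786-M1A libraries. The ratio thus rose along the 3 lines, by 3.10-fold for 786-O and 5.44-fold for 786-M1A against HK2. It rose 1.76-fold between the cancer lines, with no overlap in any comparison (exact permutation p = 0.1 each). These counts are not corrected for length, so a ratio of 1 does not mean equal levels. Per kilobase, CDH2 stood below CDH6 in HK2 and above it in 786-O (82.7 against 47.9 CPM per kb) and in 786-M1A. Both transcripts together fell from 1116 ± 34.0 CPM in HK2 to 741 ± 5.84 and 647 ± 26.2 CPM in the primary and metastatic line.

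**Figure D3:**
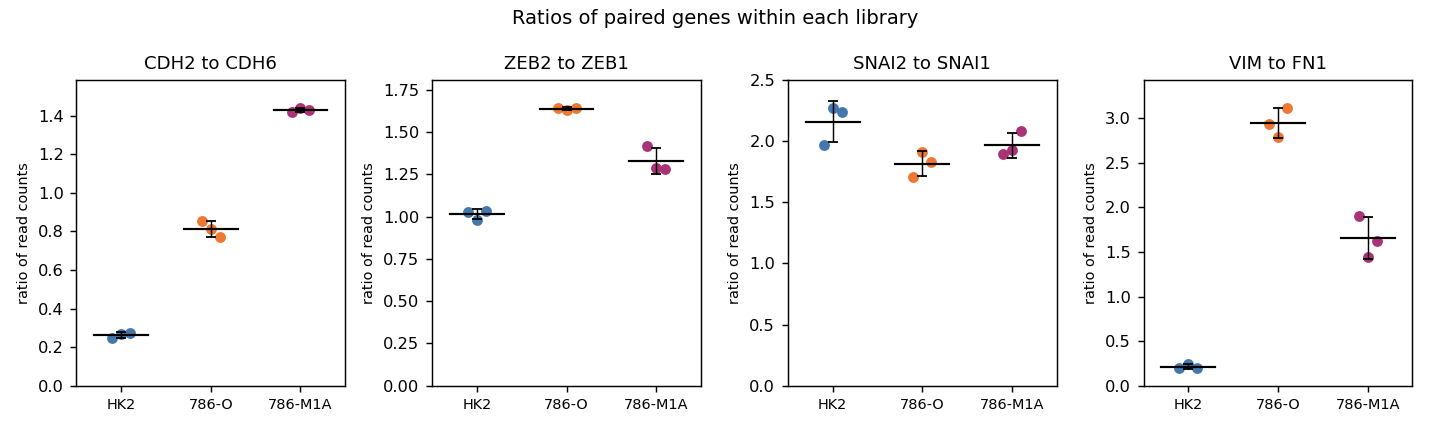
Ratio of the read counts of 2 genes within each library, for CDH2 to CDH6, ZEB2 to ZEB1, SNAI2 to SNAI1 and VIM to FN1. Points are libraries, long bars are means and error bars SD (n = 3 per line), and the counts are not corrected for transcript length. The CDH2 to CDH6 ratio is 0.263, 0.813 and 1.43 in the order HK2, 786-O, 786-M1A, and the SNAI2 to SNAI1 ratio is the one in which lines overlap.

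**Figure D4:**
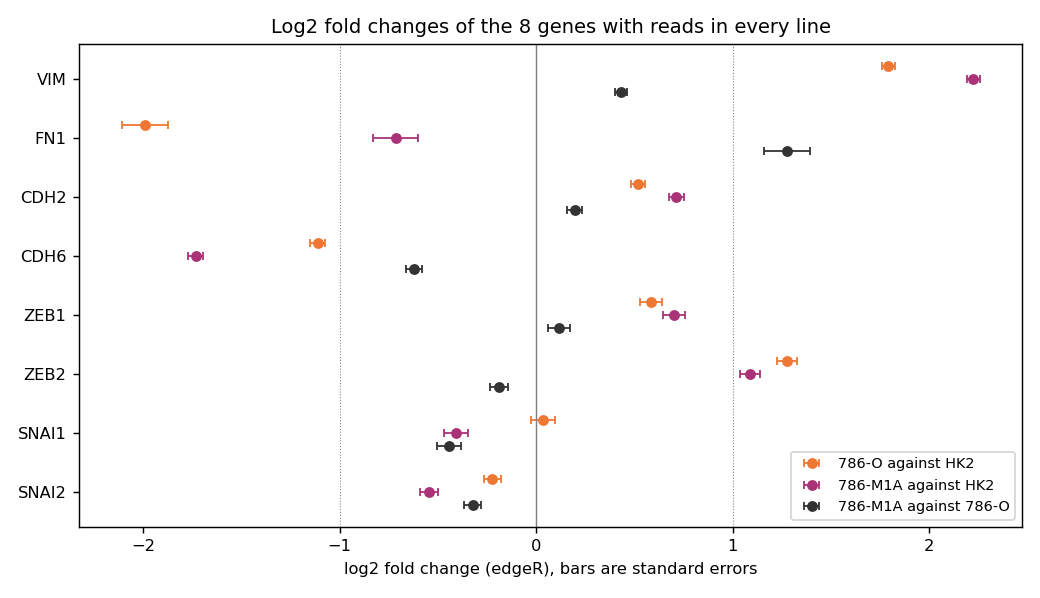
Log2 fold changes from edgeR with standard errors for the 8 members with reads in every line, in the 3 comparisons. Dotted lines mark a 2-fold difference. VIM and FN1 lie farthest from 0 in 786-O against HK2, on opposite sides, VIM and CDH6 do so in 786-M1A against HK2, and FN1 lies farthest from 0 between the cancer lines (1.28).

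E-cadherin and other epithelial genes are the classical targets of these factors. Of 34 such genes, 25 were tested, and 20 were lower and 5 higher in 786-O than in HK2 (median log2 fold change -1.38). Of all genes tested, 42.6% were lower and 41.6% higher there. In 786-M1A against HK2, 19 were lower and 4 higher (median -1.45), beside 43.3% and 41.6% of all genes. In 786-M1A against 786-O, 13 were lower and 8 higher (median -0.24), beside 28.0% and 27.9%. CDH1, ESRP1 and DSP passed the filter only through HK2, so their lower calls against HK2 were fixed by it. The same holds in the lists below for genes with reads in 1 line and few in the others. CDH1 itself was scarce in HK2 already, at 4.52 ± 0.207 CPM or 146 to 212 counts, and had 1 to 7 counts in 786-O and 0 to 1 in 786-M1A libraries. The epithelial splicing factor ESRP1 followed it, with 125 to 178 counts in HK2, up to 3 in 786-O and up to 1 in 786-M1A libraries. GRHL2, an epithelial transcription factor, had at most 1 count in any library, HK2 included. The desmosome gene DSP had 9173 to 15613 counts in HK2 libraries but 18 to 33 counts in 786-O and 2 to 5 counts in 786-M1A. JUP, plakoglobin, went down in both steps, from 88.4 ± 4.37 CPM in HK2 to 16.1 ± 0.956 and 3.52 ± 0.348 CPM in the primary and metastatic line. EPCAM and KRT19 were lowest in 786-O, and in 786-M1A EPCAM was below and KRT19 above HK2: EPCAM stood at 74.0 ± 6.37, 0.572 ± 0.0352 and 8.85 ± 0.642 CPM, and KRT19 at 105 ± 3.84, 5.90 ± 0.0551 and 186 ± 19.9 CPM in HK2, 786-O and 786-M1A. Both were higher in 786-M1A than in 786-O (log2 fold change 3.95, adjusted p = 1.02e-15, and 4.98, adjusted p = 4.82e-18). Against the direction of the list, the polarity gene LLGL2 was higher in both cancer lines than in HK2 (4.07, adjusted p = 7.22e-20, and 3.90, adjusted p = 2.06e-19).

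Other products of mesenchymal cells were split, as the members were. Such a near-even split is that of all genes too, with 41.6% higher and 42.6% lower in 786-O against HK2. In 786-M1A it was 41.6% and 43.3% against HK2, and 27.9% and 28.0% against 786-O. The list counts below stand beside the same shares. Of 33 genes, 28 were tested, with 14 higher and 12 lower in 786-O, 11 higher and 15 lower in 786-M1A against HK2, and 12 higher and 12 lower between the cancer lines (medians 0.13, -0.35 and 0.03). The gelatinase MMP2 rose in both steps, from 0.450 ± 0.0681 CPM in HK2 to 111 ± 1.82 and 725 ± 15.0 CPM in the primary and metastatic line, and the collagen gene COL6A3 from 4.26 ± 0.239 to 389 ± 33.2 and 1876 ± 193 CPM. TAGLN, a smooth muscle actin-binding protein, and GREM1, a secreted BMP antagonist, went the other way: TAGLN fell from 255 ± 10.5 CPM in HK2 to 4.35 ± 0.570 and 4.38 ± 0.279 CPM, and GREM1 from 19383 to 31331 counts in HK2 to at most 1 count in any cancer library. COL1A1 was highest in 786-O (291 ± 34.7 CPM, against 53.6 ± 4.22 in HK2 and 16.5 ± 1.24 in 786-M1A). PDGFRB was highest in 786-M1A (282 ± 3.08 CPM, against 4.98 ± 0.606 in HK2 and 2.59 ± 0.366 in 786-O).

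Beside CDH2 and CDH6, 7 of 20 other cadherins were tested. In 786-O and in 786-M1A alike, 2 were higher and 5 lower than in HK2 (medians -1.54 and -1.51). Of all genes, 41.6% were higher and 42.6% lower in 786-O, and 41.6% and 43.3% in 786-M1A. CDH1 and CDH3 passed the filter only through HK2, so their lower calls were fixed by it. CDH11 and CDH13 passed it through the cancer lines. In 786-M1A against 786-O, 1 was higher and 4 were lower, beside 27.9% and 28.0% of all genes. The median was -1.82, which is the fitted value of CDH3, a gene under the floor in both lines, and so gives no size. CDH13, a cadherin held by a lipid anchor, was higher in both steps, at 0.257 ± 0.0922, 28.2 ± 1.48 and 119 ± 1.17 CPM in HK2, 786-O and 786-M1A. CDH11, a cadherin of mesenchyme, had at most 1 count in HK2 libraries and stood at 6.54 ± 0.297 CPM in 786-O and 0.710 ± 0.0882 in 786-M1A. CDH16, the kidney-specific cadherin of tubule cells, was 13.7 ± 0.626, 12.0 ± 0.650 and 4.81 ± 0.498 CPM in HK2, 786-O and 786-M1A, with a log2 fold change of -0.18 (adjusted p = 0.0221) in 786-O and -1.51 (adjusted p = 1.81e-13) in 786-M1A against HK2. P-cadherin, CDH3, had 316 to 490 counts in HK2 and at most 1 in any library of the cancer lines. Among 8 tested partners of the cadherin tail, 3 were higher and 4 lower in 786-O and 4 higher and 4 lower in 786-M1A than in HK2, and 4 were higher and 2 lower in 786-M1A than in 786-O. A partner called higher in both cancer lines shares 5952 exonic bases with another gene on the same strand. It had only 107 to 267 counts per library, so its calls are less certain. CTNNB1, beta-catenin, stood at 317 ± 3.92, 304 ± 2.09 and 291 ± 11.1 CPM and was called in 786-M1A against HK2 alone (-0.12, adjusted p = 2.73e-03). CTNNA1, alpha-catenin, was 0.91 higher on the log2 scale in 786-O (adjusted p = 3.49e-17) and 1.00 higher in 786-M1A (adjusted p = 5.08e-18) than in HK2.

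The other intermediate filament genes and linkers of vimentin were tested for 9 of 13 genes, of which 6 were higher and 3 lower in 786-O, 5 higher and 3 lower in 786-M1A against HK2, and 4 higher and 1 lower in 786-M1A against 786-O. PLEC, the linker plectin, rose beside VIM in both cancer lines (log2 fold change 1.89, adjusted p = 1.82e-08, and 1.92, adjusted p = 1.48e-08). NEFL, a neurofilament gene, stood at 0.430 ± 0.0579, 279 ± 5.22 and 274 ± 12.5 CPM in HK2, 786-O and 786-M1A, whereas the neurofilament gene NEFH had 1631 to 2759 counts in HK2 and at most 2 elsewhere. NES, nestin, fell from 140.4 ± 3.09 CPM in HK2 to 6.36 ± 0.401 and 11.7 ± 0.843 CPM in the primary and metastatic line. Of 8 tested fibronectin receptors, 3 were higher and 4 lower in 786-O, 4 higher and 4 lower in 786-M1A against HK2, and 2 higher and 4 lower between the cancer lines. The chains of the main fibronectin receptor were higher in both cancer lines, where FN1 was lower: ITGA5 by 0.88 (adjusted p = 2.15e-14) and 0.93 (adjusted p = 6.62e-15) and ITGB1 by 0.37 (adjusted p = 7.22e-09) and 0.39 (adjusted p = 2.76e-09) on the log2 scale. The epithelial chain ITGB6 fell from 79.5 ± 5.40 CPM in HK2 to 25.4 ± 2.34 and 6.21 ± 0.398 CPM in the primary and metastatic line.

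Among 16 other factors of the transition, 11 were tested, with 7 higher and 4 lower in 786-O, 5 higher and 5 lower in 786-M1A against HK2, and 2 higher and 7 lower in 786-M1A against 786-O (medians 0.89, 0.22 and -0.28). The E proteins TCF3, TCF4 and TCF12, which bind E-boxes and pair with TWIST proteins, were all higher in both cancer lines. TCF12 stood at 82.1 ± 3.78, 313 ± 4.94 and 210 ± 8.85 CPM in HK2, 786-O and 786-M1A. HMGA2, a chromatin protein that can induce SNAI1 and TWIST1, fell from 446 ± 20.3 CPM in HK2 to 25.8 ± 2.24 and 21.7 ± 0.683 CPM in the primary and metastatic line. LEF1, a partner of beta-catenin, was at 0.618 ± 0.229, 14.4 ± 0.170 and 0.221 ± 0.108 CPM, and so was high in 786-O alone among the 3 lines.

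The corepressors and turnover factors of these proteins differed little in size. All 18 were tested, with 6 higher and 9 lower in 786-O, 4 higher and 12 lower in 786-M1A against HK2, and 6 higher and 4 lower between the cancer lines (medians -0.18, -0.31 and -0.02). Only 2, 1 and 0 of them were called with at least a 2-fold difference, beside 22.3%, 25.4% and 6.59% of all genes. CTBP1, the corepressor that ZEB proteins recruit, was 0.15 higher in 786-O (adjusted p = 2.10e-03) and 0.14 higher in 786-M1A (adjusted p = 3.03e-03) on the log2 scale. FBXW7, a ubiquitin ligase subunit, was lower in both, by log2 fold changes of -1.22 (adjusted p = 8.12e-14) and -1.29 (adjusted p = 4.03e-14). Of the ligands, receptors and signal carriers known to induce the factors, 22 of 24 were tested, with 9 higher and 10 lower in 786-O, 4 higher and 9 lower in 786-M1A against HK2, and 3 higher and 12 lower in 786-M1A against 786-O (medians 0.03, -0.02 and -0.29). TGFB2, a ligand of the TGF-beta family, was lower in both cancer lines (-1.72, adjusted p = 8.28e-20, and -1.69, adjusted p = 9.89e-20), and the receptor TGFBR2 differed by -0.17 in 786-O (adjusted p = 4.70e-04) and 0.07 in 786-M1A (adjusted p = 0.0779, not called). JAG1, a Notch ligand, stood at 615 ± 25.6, 539 ± 13.9 and 115 ± 1.35 CPM in HK2, 786-O and 786-M1A. Of the genes named from these lists, TAGLN, GREM1, CDH13, CTNNA1, CTBP1, TGFB2, HMGA2, LEF1, FBXW7 and ITGA5 share exonic bases with another gene of the table, mostly antisense, which makes their counts less certain.

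**Figure D5:**
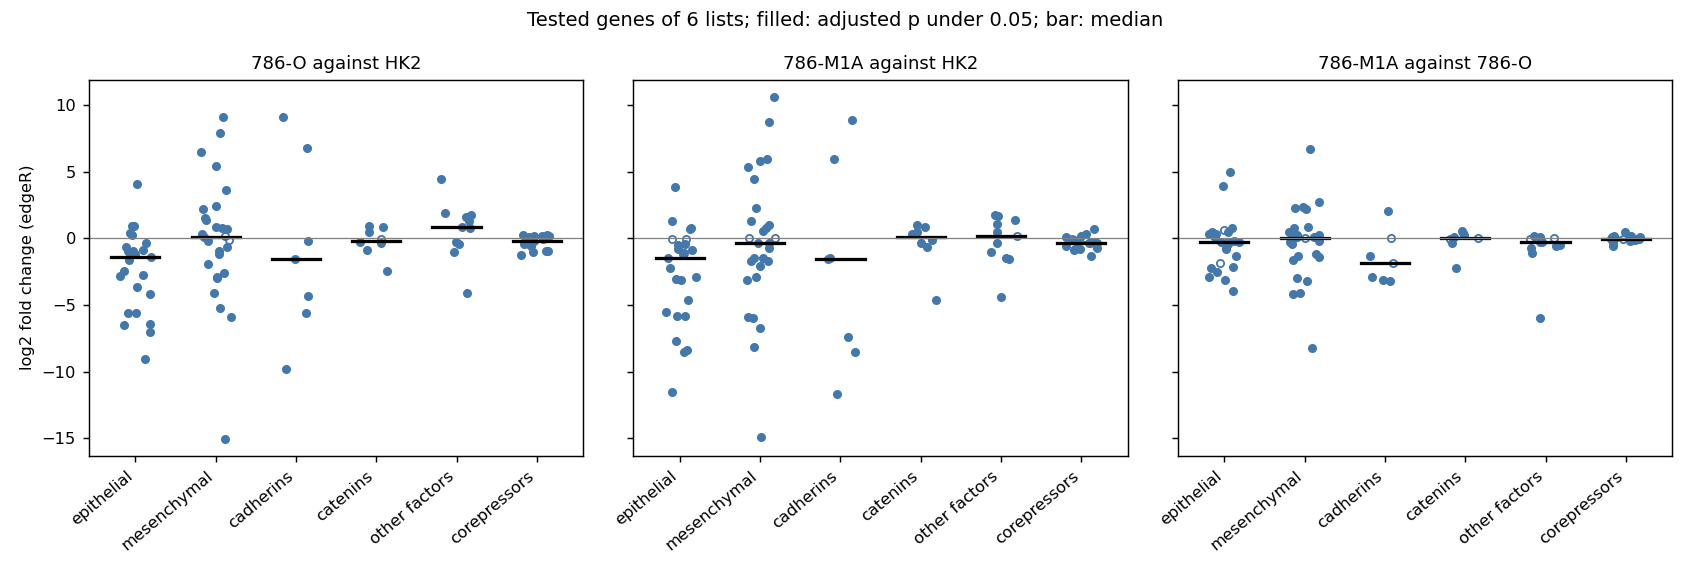
Log2 fold changes (edgeR) of the tested genes of 6 lists in the 3 comparisons: epithelial genes, other mesenchymal products, other cadherins, catenins and partners, other transition factors, and corepressors. Each point is a gene, filled where the adjusted p was below 0.05, and bars are medians. Points of genes with 0 or few counts in a line depend on the fitted prior and mark no exact size. The epithelial genes lie mostly below 0 against HK2 (medians -1.38 and -1.45), and the corepressors lie close to 0.

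For each tested member, the genes with the most similar profile over the 9 libraries were found by the Euclidean distance between centred log2 CPM values. The nearest to CDH2 were YWHAG (distance 0.0576) and KIF4A (0.0815), and the nearest to ZEB1 were SLC20A1 (0.0885) and NCEH1 (0.119). SNAI2 had VMP1 (0.103) and HDAC8 (0.108) beside it, VIM had ADGRE5 (0.141), and CDH6 had DCDC2 (0.154) and PLCB4 (0.159). ZEB2 was nearest to SLC35D1 (0.146) and CHSY1 (0.146), and SNAI1 to G6PC3 (0.166) and GALNT2 (0.170). FN1 had the most distant neighbours, MAFF (0.417) and EHD2 (0.437). TWIST1 shared its pattern of presence in HK2 and absence of reads elsewhere with KCNK5 (0.152) and NXPH2 (0.162), at 8.32 and 8.35 CPM in HK2. No member was among the 2 nearest genes of another. With 3 lines, such a distance reflects in the main 3 line means, and many genes share a similar order of them.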

How the data were processed

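RNA of HK2, 786-O and 786-M1A cells (3 libraries each, taken from the labels) was sequenced from stranded poly(A) libraries. The authors counted reads on genes of the GRCh38 build with featureCounts and deposited raw, whole-number counts, without normalization, for NCBI gene identifiers. The strand setting and the annotation version are not given in the sources used here. RefSeq symbols (GRCh38.p14) matched 27745 of 28395 identifiers, and positions, transcript lengths and exon overlaps came from GENCODE release 44. The paper's methods describe replicate dishes plated a day ahead of RNA extraction, and a figure legend speaks of 3 independent cultures. The dishes of a line may thus have been plated in parallel, so p-values measure the spread between these libraries, which may be partly technical.

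Counts were scaled with TMM factors and tested with edgeR 4.0.16 in R 4.3.3 (robust quasi-likelihood fit, 1 coefficient per line, all 9 libraries), after a filter of 50 counts on average, the one the paper used. The Benjamini-Hochberg adjustment ran over 12695 genes with a threshold of 0.05, and standard errors came from the fold change and the F statistic. CPM used the scaled totals. Exact two-sided permutation tests used log2 CPM with a prior count of 2 (scipy 1.17.1). Floors of 3 counts cover counting error only. The fit was tested on simulated counts in which 200 genes differed in 786-O, far fewer than were called here. The simulation thus does not show how the scaling behaves where most genes differ. Replicate libraries of each line differed by more than sampling noise (chi-square per degree of freedom 3.10 to 8.62), so none was merged. The VSN step of the paper was not run.

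The 10 members and the 13 gene lists beside them were chosen with earlier results of these data known, so they give no independent support. All members are named. Of each list, genes with fixed names and up to 3 genes with the largest called difference per direction and comparison could be named, as could the 2 nearest profiles of each member. Of these, some genes are not reported here. Alternatives were RLE and upper-quartile scaling, DESeq2 1.42.0, limma 3.58.1 on log2 CPM, no filter, at least 10 counts in every library, only the lines compared, a replicate block, and leaving out each library.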

Additional observations from a re-analysis of the deposited data

Results flagged for a closer look

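For 7 members the effect against HK2 differed between the cancer lines, by the test of the difference itself, which is here the contrast of 786-M1A against 786-O (edgeR, adjusted p below the threshold, n = 3 libraries per line). The log2 fold change against HK2 in 786-M1A exceeded that in 786-O by 1.28 for FN1, 0.43 for VIM and 0.20 for CDH2. The difference was -0.62 for CDH6, -0.44 for SNAI1, -0.32 for SNAI2 and -0.19 for ZEB2, each lower in 786-M1A. For FN1 and ZEB2 the difference runs against the effect in 786-O, so that 786-M1A lay closer to HK2, and for VIM, CDH2, CDH6 and SNAI2 it runs the same way. Because both effects share the HK2 libraries, they are not independent of each other. Of all genes tested, 56.0% were called in the same contrast.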

How the results depend on the processing

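The counts of members called, here with TWIST1, were within 1.5 times those of the reported fit (8, 9 and 7) in all 14 alternatives of each comparison: 7 to 8 in 786-O and 8 to 9 in 786-M1A against HK2, and 7 to 8 between the cancer lines, where leaving out 1 library at a time gave 8 and 8, 9 and 9, and 7 and 8. In the reported fit, 84.2%, 84.9% and 56.0% of all genes were called. The call of TWIST1 against HK2 was fixed by the filter and adds no support to these counts. TWIST1 was no longer tested where each library had to reach 10 counts. The value of SNAI1 in 786-O against HK2, 0.03 and not called, turned sign under upper-quartile scaling (-0.0068) and ranged from -0.017 (without 786-O library 1) to 0.085 when a library was left out, with -0.0034 without HK2 library 2. ZEB1 in 786-M1A against 786-O ranged from 0.083 to 0.18 in the same way and was called without 786-M1A library 1 (adjusted p = 0.00594). The other member values kept direction and call in every alternative that gave a value. Scaling moved the median of all genes by at most 0.0484.

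Whether the replicate numbers pair the libraries was not tested. Deviations of libraries with the same number correlated across genes at 0.215, 0.0740 and 0.110 between the cancer lines and between -0.167 and 0.0376 against HK2. The same correlation for libraries with different numbers was not computed. With a replicate block, 8, 9 and 7 members were called, as without it, with TWIST1 among those against HK2. ZEB1 in 786-M1A against 786-O was 0.12 in that fit (adjusted p = 0.0533).

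The list counts were within 1.5 times except for 7 of 39. Without a filter on low counts the other cadherins called in 786-O against HK2 were 11, and where each library had to reach 10 counts they were 2, 2 and 1 in the 3 comparisons. The unfiltered fit called 5410, 5895 and 1592 genes with at least a 2-fold difference, against 2829, 3220 and 836 in the filtered one.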
